A study of Mus musculus with 16 samples.

Results

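Chromatin accessibility within genes was described in retinal ganglion cells of naive mice, the untreated controls of a study of experimental autoimmune encephalomyelitis (EAE), an inflammatory disease model that can affect the optic nerve. The libraries labelled naive were 5 of the 16 libraries of the series, and 35258 of its 37255 gene intervals were described. Per the labels, the cells were retinal ganglion cell neurons sorted by FACS; the mice were female, the source tissue was the eye, and the treatment was control with no disease stage. The strain, the age of the naive mice, the markers of the sort and whether each library came from its own animal are not in the labels, so spread between libraries may be partly technical.

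ATAC-seq uses a transposase that cuts accessible DNA and inserts sequencing adapters, so that regions free of dense nucleosome packing yield more reads. Signal is usually strongest at promoters and enhancers and weaker along the bodies of genes. Retinal ganglion cells are the output neurons of the retina, whose axons form the optic nerve; their identity depends on transcription factors of the POU4F, ISL and EBF families, and they share a developmental origin with the photoreceptors, interneurons and Müller glia of the retina.

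Each interval was a gene, and reads had been counted over a length that differed from the gene's span by 2000 bp. In genes of at least 4000 bp this was the gene body, exons and introns together (27687 gene bodies). It was taken to lack its outermost 1000 bp at each end, and so the promoter at the gene's listed start. That placement is inferred from the length and is not stated in the labels. Genes under 1000 bp were counted over a window longer than the gene, which took in the gene start and flanking DNA (3464 start windows). A further 4107 intervals of other spans were kept where at least 500 bp had been counted. Density is given as reads per kb of counted length per M nuclear reads (M, 1000000), and ± marks the SD over the 5 libraries (n = 5).

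Nuclear reads in intervals ranged from 4.67 M to 15.1 M per library, and mitochondrial genes took 39.3% to 64.7% of interval reads. Counts of exactly 2 reads were more frequent than counts of exactly 1 (8186 against 1463 interval values), as when both ends of a fragment are counted, so counting error was computed for pairs of reads. Replicates 3 and 4 stood apart from replicates 1, 2 and 5: receptor genes of the olfactory and vomeronasal families took 0.562% and 0.495% of their nuclear reads against 0.192% to 0.265%. Several values that rest on these libraries, but not all, are given with and without them. Intervals overlapped another interval in 39.6% of cases, and reads in shared stretches cannot be assigned to 1 gene.

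The median gene body had a density of 0.597 ± 0.0511. Library medians in replicates 1 to 5 were 0.658, 0.590, 0.532, 0.639 and 0.569. The 10th percentile of mean densities lay at 0.290 and the 90th at 1.35. Within single libraries the range was wider, with a 90th percentile 5.66, 6.30, 11.0, 6.40 and 8.99 times the 10th in replicates 1 to 5. The upper end was long: the 99th percentile lay at 3.98 and the highest body at 50.5. Start windows had a similar median of 0.546 ± 0.145 but a higher 90th percentile of 3.72 and a 99th percentile of 28.8.

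A small set of genes was dense in every library. In all 5 naive libraries 810 gene bodies lay in the densest 10%, which is 2.93% of bodies. The sparsest 10% held 635 bodies in all 5, which is 2.29%. Among start windows 231 were in the densest 10% in all 5, or 6.67%. When bodies were ranked in the other 4 libraries, the mean density of the sparsest 10% was 0.241 ± 0.0273 in the library left out, and that of the densest 10% was 2.32 ± 0.506.

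**Figure D1:**
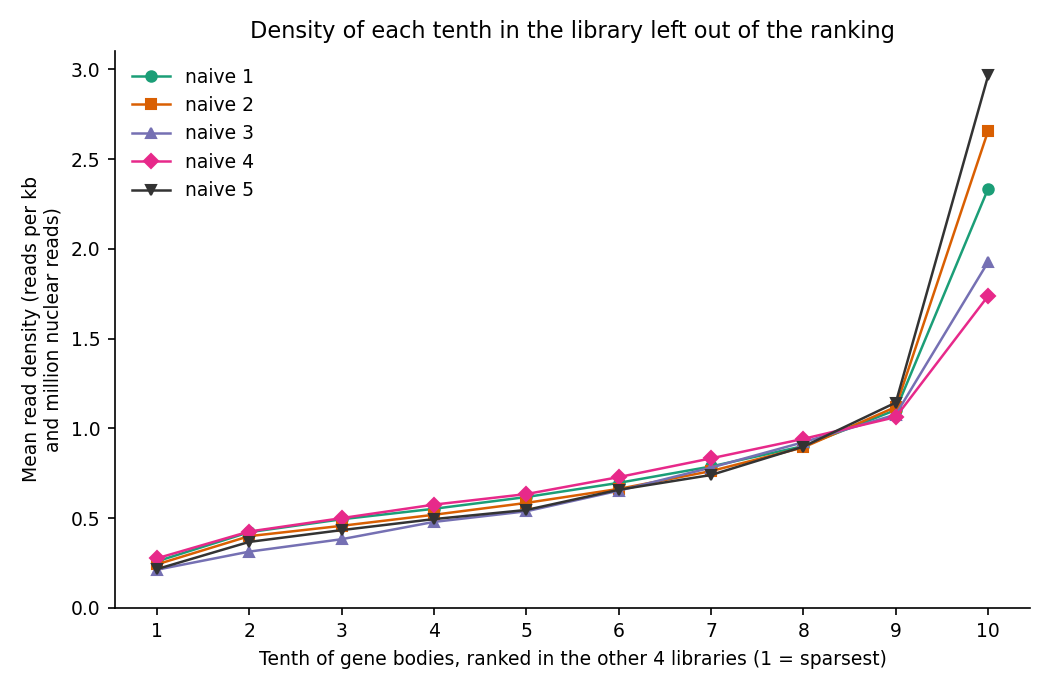
Mean read density (reads per kb per M nuclear reads) of gene bodies in 10 groups of equal size, from the sparsest (1) to the densest (10), with 1 line per naive library; bodies were ranked in the other 4 libraries. The lines lie close up to group 9 and separate in the densest 10%, from 1.74 in replicate 4 to 2.97 in replicate 5.

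The libraries differed in how far dense genes stood above sparse ones. The ratio of the densest to the sparsest 10% was 9.03, 11.0, 9.08, 6.31 and 13.8 in replicates 1 to 5. The densest 10% of bodies made up 5.68% to 6.09% of counted body length. It took 13.2%, 14.2%, 10.8%, 9.87% and 15.6% of body reads. Replicate 5 was the highest and replicate 4 the lowest in both measures.

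The densest gene body was Crlf2, which encodes a subunit of the receptor for thymic stromal lymphopoietin, at chromosome 5 109554709-109559027 with 2319 bp counted. Its densities in replicates 1 to 5 were 49.3, 51.4, 38.5, 20.9 and 92.4, a mean of 50.5 ± 26.3. All 5 values lay above the 99th percentile of mean densities, and the highest was 4.42 times the lowest. A pair of zinc finger genes on chromosome 7 followed. Zfp574 (25075679-25083492) had 23.1, 30.9, 18.4, 11.7 and 48.4, with a mean of 26.5 ± 14.1. Zfp446 (12976398-12985717) had 22.1, 27.1, 19.1, 12.5 and 44.7, with a mean of 25.1 ± 12.2. Replicate 5 was the highest and replicate 4 the lowest for each of these 3 genes.

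Several of the 15 densest bodies hold the start of another gene, so that a promoter lay within the counted stretch. Gm10789 (24.6 ± 10.3) holds the start of Tiam1, an activator of the small GTPase Rac. Cnga4, a channel subunit of olfactory neurons, holds the start of Fam160a2 and had densities of 19.7, 20.5, 21.1, 14.9 and 30.8. Gm30836 (19.4 ± 3.64) holds the start of Lyst, a regulator of lysosome traffic. The body of 4932443L11Rik (19.1 ± 8.30) holds the start of Evi5l, and Naif1 (17.8 ± 8.30) that of Slc25a25, a mitochondrial carrier. In these intervals the density cannot be assigned to the listed gene.

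The other dense bodies hold the start of no other listed gene, although Apoa2 and Rnf181 overlap a neighbour. All of them but Gm38543 and C130071C03Rik merge several transcripts under 1 name. Whether a further start of the same gene lies inside the counted stretch was not examined, so a promoter there is possible. These bodies include Apoa2 (19.3 ± 6.94), an apolipoprotein of high-density lipoprotein, and Ing1 (18.004 ± 6.46), a reader of histone methylation. Fth1, the heavy chain of the iron store ferritin, had densities of 12.95, 19.5, 15.3, 11.6 and 22.4 (mean 16.4 ± 4.53). The noncoding C130071C03Rik (15.9 ± 6.08), Rnf181 (15.3 ± 5.78), Gpr85 (14.7 ± 5.46) and Gm38543 (18.05 ± 9.59) complete the 15. Replicate 5 was the highest of the 5 libraries for each of the 15 except Gpr85, where replicate 2 was, with 21.0 against 17.6.

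**Figure D2:**
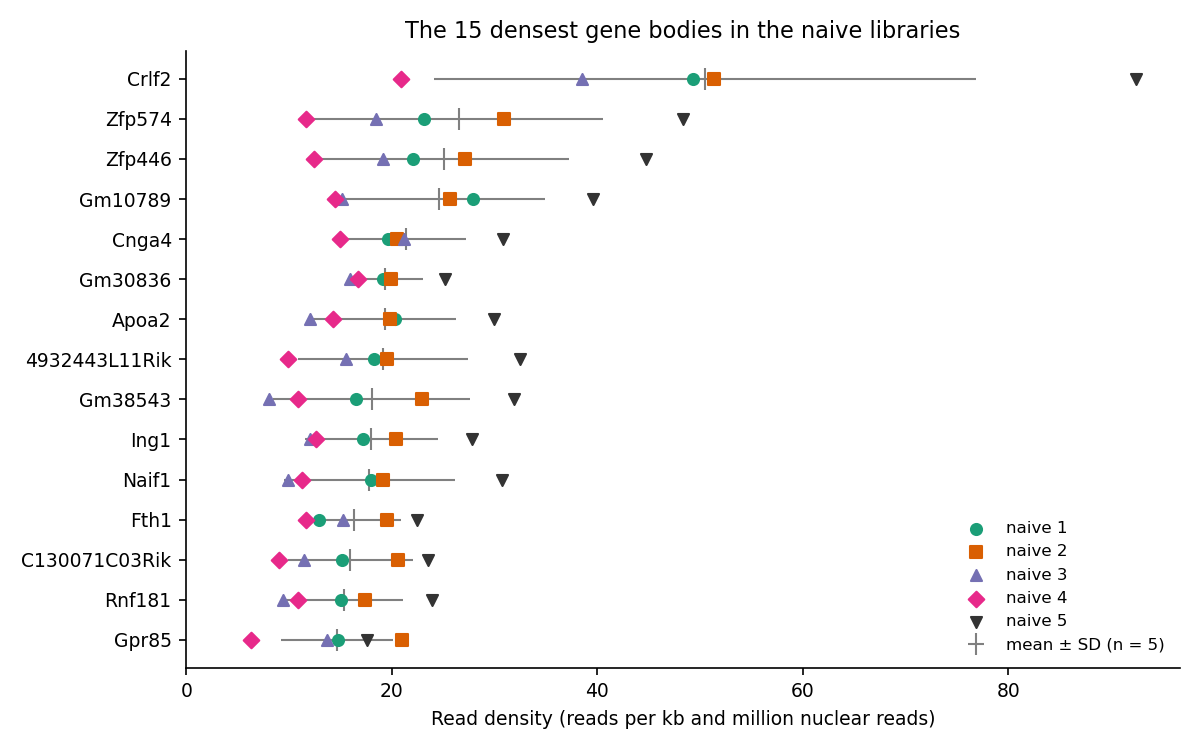
Read density (reads per kb per M nuclear reads) of the 15 gene bodies with the highest mean, with 1 point per naive library and the mean ± SD (n = 5) as a grey bar. Replicate 5 lies to the right for 14 of the 15 genes, and for Crlf2 it reaches 92.4 against 20.9 in replicate 4.

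Length and the presence of other starts went with density across bodies. The median rose from 0.534 ± 0.0560 in bodies under 5000 bp counted to 0.800 ± 0.0488 in those of at least 300000 bp. The share in the densest 10% in all 5 libraries went the other way, from 5.41% of 4473 bodies to 0.174% of 574. Among bodies of 2000 to 5000 bp, those with another start inside had a median of 0.657 ± 0.0838 against 0.526 ± 0.0551 without. They were in the densest 10% in all 5 libraries in 14.9% of cases against 4.82%. Where exons made up at least 50% of the span, 8.59% of bodies were in this set, against 0.728% where they made up under 5%.

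Only 27 of the 5755 bodies of at least 50000 bp were in the densest 10% in all 5 libraries, and those named here were chosen after their values were seen. The densest was Firre, an X-linked noncoding RNA gene (4.27 ± 1.99). It was followed by Bdnf, the gene of a neurotrophin made by many neurons, which had densities of 2.84, 3.95, 3.18, 1.89 and 4.38 and a mean of 3.25 ± 0.976. Klf13, a zinc finger transcription factor (3.00 ± 0.910), and Sin3a, a scaffold of histone deacetylase complexes (2.99 ± 1.10), came next. Of the 27, 6 lie on the X chromosome, which holds 237 of the 5755 long bodies.

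Among start windows the highest densities were at genes of small RNAs and noncoding RNAs whose windows take in promoters. The window of the microRNA gene Mir1938 (chromosome 12, 40222712-40222811) holds the starts of Ifrd1 and Gm7008 and had densities of 118, 127, 111, 74.2 and 184 (mean 123 ± 39.5). The noncoding 4632427E13Rik (chromosome 7, 92740706-92741459) had 88.5, 109.7, 85.3, 62.2 and 173 (mean 104 ± 42.4). Mir5627 (72.1 ± 20.3) holds the start of Dnajb9, a chaperone of the endoplasmic reticulum. All of these values are above the 99th percentile of windows, and replicate 4 was the lowest library for each of these 3.

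Further dense windows were those of Snhg8 (68.6 ± 21.9), a host gene of small nucleolar RNAs, and Snora24 (53.8 ± 16.9), which lies in it and shares its reads. The window of XR_001784008.1 (66.0 ± 24.2) holds the start of H2afz, the gene of the histone variant H2A.Z, and that of Gm32031 (56.3 ± 19.97) the start of Spty2d1. Sf3b5, a subunit of the SF3b splicing complex, had densities of 57.5, 51.3, 41.3, 39.5 and 78.2 (mean 53.5 ± 15.6). Gm31050 (53.1 ± 14.1) and Mir5620 (52.3 ± 22.6) complete the 10 densest.

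MicroRNA windows as a whole were in the densest 10% in all 5 libraries in 5.44% of 1176 cases, against 6.67% of all windows. They differed by neighbouring starts. Of 354 microRNA windows with another start inside, 13.6% were in the densest 10% in all 5 libraries. Of 822 without one, 1.95% were. Their medians were 0.690 ± 0.118 and 0.537 ± 0.106, and the first was higher within each of the 5 libraries, by the least in replicate 2 (0.5495 against 0.5475).

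The DNA before several of these starts is shown to set windows from the densest to near the median side by side. Each line gives the 100 bases before a start, from RefSeq on GRCm38.p6, 5′ to 3′ on the strand of the gene, with CpG dinucleotides in capitals. The first 3 starts lie in the densest windows; Hist1h2ac and Hist1h1e belong to dense histone windows, and Hist1h1t and Hist1h2ba to windows near the median.
Ifrd1: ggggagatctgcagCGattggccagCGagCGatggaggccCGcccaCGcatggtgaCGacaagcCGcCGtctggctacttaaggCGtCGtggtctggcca
4632427E13Rik: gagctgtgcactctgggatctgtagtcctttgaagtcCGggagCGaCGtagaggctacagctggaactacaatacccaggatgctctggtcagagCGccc
Snhg8: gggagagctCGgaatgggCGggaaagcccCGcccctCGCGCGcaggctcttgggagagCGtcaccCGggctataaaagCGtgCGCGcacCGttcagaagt
Hist1h2ac: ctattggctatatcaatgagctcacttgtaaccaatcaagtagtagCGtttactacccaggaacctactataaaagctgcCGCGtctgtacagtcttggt
Hist1h1e: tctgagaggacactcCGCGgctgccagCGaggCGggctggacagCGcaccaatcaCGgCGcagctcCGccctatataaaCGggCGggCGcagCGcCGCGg
Hist1h1t: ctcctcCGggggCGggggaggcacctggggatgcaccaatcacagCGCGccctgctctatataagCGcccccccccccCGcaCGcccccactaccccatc
Hist1h2ba: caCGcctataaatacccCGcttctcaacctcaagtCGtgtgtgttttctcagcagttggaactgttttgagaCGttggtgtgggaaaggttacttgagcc
These stretches hold 10, 4, 12, 3, 14, 7 and 4 CpG dinucleotides in the order shown. In the histone lines the CpG number does not follow density: Hist1h2ac, the densest histone window, has 3 and Hist1h2ba, near the median, has 4.

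A start equal to that of a RefSeq promoter was found for 1246 of the 3464 start windows, of which 95 matched through an older symbol. Promoter features were read in the 250 bases before the start. The densest 10% of matched windows (125) had a median GC content of 51.2% and a ratio of observed to expected CpG of 0.704, against 38.0% and 0.142 in the sparsest 10% (125) and 52.4% and 0.373 over 32851 RefSeq promoters. The letters CCGCCC, bound by factors of the SP and KLF families, were found on either strand in 40.0% of the densest 10%, 0.800% of the sparsest and 32.7% of all promoters. With histone genes left out the CpG ratios were 0.521 and 0.139. With 20% in place of 10% at each end they were 0.314 and 0.139.

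Of the 231 dense windows, 73 had a matched promoter. In the 20% of matched windows with the highest CpG ratio (from 0.322) the median density was 1.37 ± 0.346, and 26.9%, or 67 windows, were in the densest 10% in all 5 libraries. In the other 4 groups of 20% this share lay between 0% and 1.205%. The lowest 20%, with no CpG, had a median of 0.797 ± 0.485, with 1.45 and 1.15 in replicates 3 and 4 and 0.280 to 0.611 in the others. Across the 1246 windows the Spearman correlation of density with the CpG ratio was 0.186, 0.207, 0.105, 0.123 and 0.217 in replicates 1 to 5, as a description over windows that share libraries and base composition. For GC content the values were 0.133, 0.179, -0.143, -0.0572 and 0.161, so that replicates 3 and 4 had the opposite sign.

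Histone genes of the replication clusters, which encode the core and linker histones used to package newly made DNA, formed the densest family. Of their 61 start windows, 40 (65.6%) were in the densest 10% in all 5 libraries, against 6.67% of all windows. The median histone window had densities of 13.9, 16.6, 10.1, 5.77 and 22.6 in replicates 1 to 5. The median of all windows was 0.517, 0.446, 0.643, 0.740 and 0.384. The ratio of these medians was thus lowest in replicate 4 (7.80) and highest in replicate 5 (58.9). Over all 68 histone intervals the ratio to the class median was 25.4 ± 16.9, and among intervals with a mean count of at least 10 it was 8.52. Every library had a histone median above the 90th percentile of the windows' mean densities.

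Every histone type had windows in the densest 10% in all 5 libraries. They were 11 of 12 H2B windows, 10 of 18 H2A, 9 of 13 H4, 7 of 12 H3 and 3 of 6 H1. Windows of neighbouring H2A and H2B genes can overlap and share reads. Hist1h2ah and Hist1h2bk, each with another start inside its window, had mean counts of 409.6 and 410.4. These numbers and the 40 of 61 are therefore not counts of separate stretches. Hist1h2ac (chromosome 13, 23683473-23683959), an H2A gene with another start inside its window, had densities of 34.8, 44.4, 25.98, 25.5 and 62.0 (mean 38.5 ± 15.2). Hist1h3a had 33.9, 45.2, 19.6, 26.4 and 58.9 (mean 36.8 ± 15.6). The linker histone gene Hist1h1e had 19.3, 25.4, 10.1, 9.13 and 36.0 (mean 20.01 ± 11.2). Replicate 5 was the highest library in 49 of the 61 windows.

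Several histone windows lay near the median of all windows, and those named here were chosen after their values were seen. Among them were genes of histones made mainly in the testis, in the same cluster on chromosome 13. Hist1h1t had 0.677, 0.731, 0.902, 0.785 and 0.230 (mean 0.665 ± 0.257). Hist1h2ba had 0.273, 0.674, 0.566, 0.507 and 0.371 (mean 0.478 ± 0.159), and the adjoining Hist1h2aa had a mean of 0.583 ± 0.410. All 3 testis genes lie near the median window. Other low windows were Hist2h3c1 (0.209 ± 0.198), Hist2h3c2 (0.725 ± 0.265) and Hist1h4m (1.09 ± 0.788), so low density was not confined to the testis genes. The mean counts are low, at 6.80, 6.60 and 6.20 reads per library for Hist1h1t, Hist1h2ba and Hist1h2aa.

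A few histone copies were empty. Hist1h2ao held no read in any library, and Hist1h2ap a mean of 0.4 reads. Histone genes include near-identical copies, and the labels do not say how reads with several alignments were treated, so low values of single copies are uncertain. Of the 44 histone windows matched to a promoter, 79.5% hold the letters CCAAT on either strand in the 250 bases before the start. The share was 41.7% of all matched windows and 33.8% of all promoters. It was also high in the sparsest 10% of matched windows, at 60.8%, so CCAAT did not mark dense windows in general. In the densest 10% it was 50.4%, and 32.2% with histone genes left out. The letters TATAAA were found in 43.2% of the histone windows, against 36.8% of matched windows and 12.4% of all promoters. The octamer ATTTGCAT, known from H2B promoters, was found in 27.3% of the histone windows, 2.89% of matched windows and 1.60% of all promoters.

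**Figure D3:**
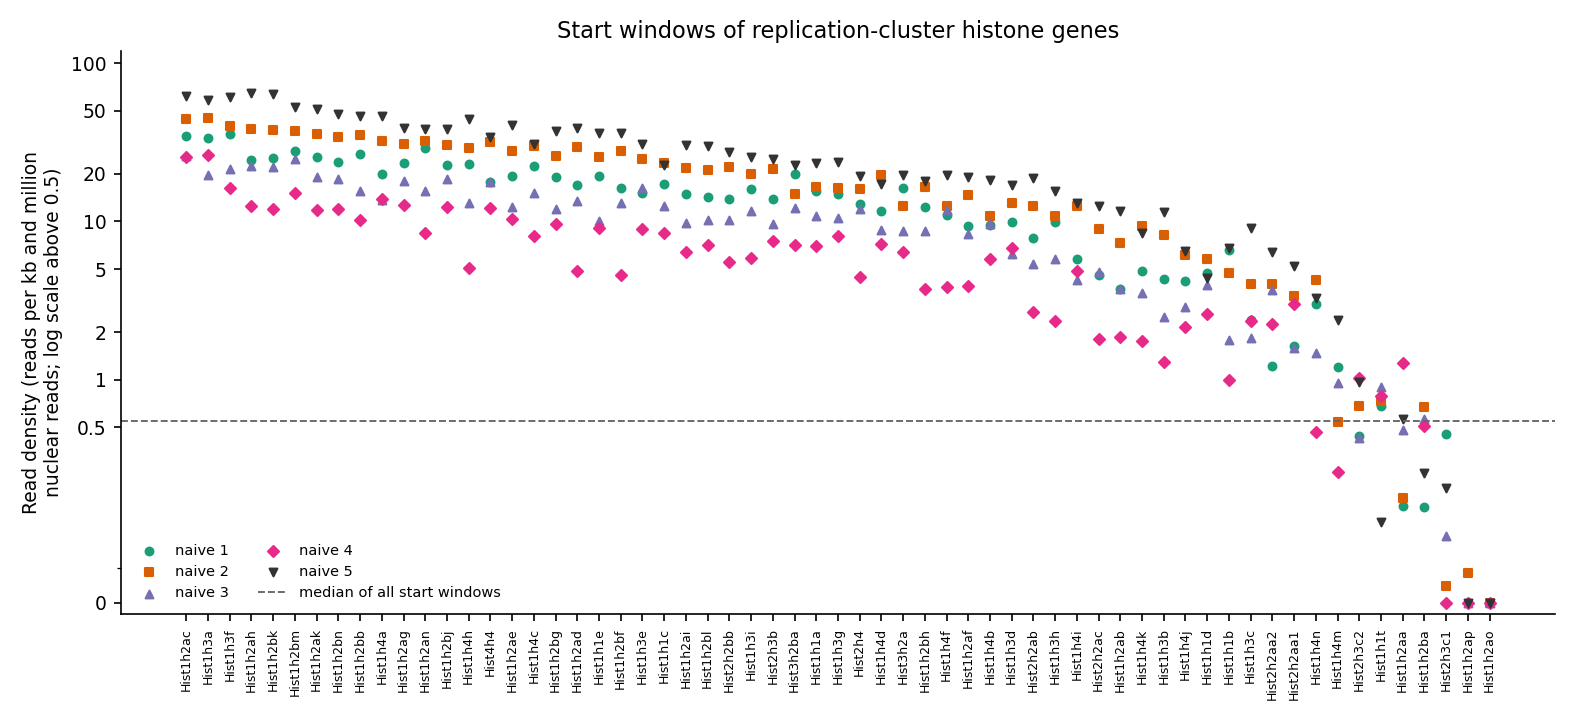
Read density of the 61 start windows of replication-cluster histone genes (reads per kb per M nuclear reads, log scale above 0.5 and linear below), ordered by mean, with 1 point per naive library and the median of all start windows as a dashed line. Most windows lie far above the line in every library, with replicate 5 on top and replicate 4 at the bottom, and the windows of Hist1h1t, Hist1h2aa and Hist1h2ba lie at the line.

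Other families were described by the median of their members over the median of their class in each library. Hox genes, which pattern the trunk and are silent in most head tissues, were low at 0.502 ± 0.139. Their ratios were 0.687, 0.541, 0.305, 0.455 and 0.520 in replicates 1 to 5. Averaged over libraries, the ratio to the class median was above 1 in 3 of 29 members. Zinc finger genes with Zfp symbols had 0.777 ± 0.0465, below 1 in all 5 libraries, and 20 of 376 (5.32%) were in the densest 10% in all 5, against 2.93% of gene bodies. Voltage-gated potassium channel genes had 1.37 ± 0.0858, GABA-A receptor genes 1.45 ± 0.382 and glutamate receptor genes 1.21 ± 0.0415, each above 1 in all 5 libraries. Without replicates 3 and 4 the mean of the GABA-A receptor genes was 1.28. Against bodies of like length the glutamate receptor ratio was 0.955.

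Chemosensory receptor families divided the libraries. The ratio of olfactory receptor genes was 0.805, 0.833, 1.90, 1.52 and 0.726 in replicates 1 to 5. That of vomeronasal receptor genes was 0.498, 0.471, 1.34, 0.998 and 0.451. Both were higher in replicates 3 and 4 than in the other 3 libraries, with no overlap. Without replicates 3 and 4 the means were 0.788 and 0.474, against 1.16 and 0.751 with all 5.

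Marker lists of the cells that an eye sample can hold were compared in the same way. Gene body density is not a measure of expression, and in bulk libraries fewer cells of a type and less signal per cell cannot be told apart. Over all intervals 22.3% were above their class median in every library and 19.95% below it in every library.

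Transcription factors of retinal ganglion cells had a median ratio of 1.83 ± 0.316, with 1.63, 1.85, 2.28, 1.45 and 1.92 in replicates 1 to 5. Of the 20 factors, 18 had a mean ratio above 1. In all 5 libraries 10 were above the class median, and none was below it in all 5. Sox4, a related factor of neuron development with 967 bp counted, had the highest mean, 4.98 ± 2.27, from 2.46 in replicate 4 to 8.06 in replicate 2. Sox11 was the 1 member in the densest 10% in all 5, with densities of 2.32, 2.26, 2.06, 1.57 and 3.56. Isl1 had 1.12 ± 0.360, Isl2 1.13 ± 0.561, Tbr1 1.12 ± 0.372 and Irx2 1.21 ± 0.468. Pou4f1, a POU factor that marks most ganglion cells, lay near the median with 0.649 ± 0.329, and its values of 0.788, 0.137, 1.02, 0.731 and 0.568 straddled it. Eomes was the lowest of the list at 0.378 ± 0.308.

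Structural and type markers of ganglion cells had a ratio of 1.44 ± 0.219, with 1.46, 1.66, 1.45, 1.08 and 1.55 in replicates 1 to 5. Of 23 markers, 19 had a mean ratio above 1. Thy1, a surface protein often used to enrich ganglion cells, was in the densest 10% in all 5 with 4.35, 1.55, 3.13, 3.85 and 2.27. Rbpms, an RNA-binding protein of ganglion cells, had 1.12, 1.27, 1.18, 0.892 and 1.42 over 145254 bp. Tubb3 (0.467 ± 0.247) and Rbpms2 (0.431 ± 0.137) lay below the median.

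Lists of other retinal neurons were also above 1 in all 5 libraries. Amacrine and horizontal cell genes had the highest mean ratio of the lists, 2.11 ± 0.482, with 1.74, 2.52, 2.25, 1.47 and 2.56. Of its 21 members, 4 (19.05%) were in the densest 10% in all 5 libraries, against 2.93% of gene bodies: Barhl2 (4.69 ± 3.59), Pax6 (4.53 ± 2.37), Tfap2a (3.47 ± 0.948) and Tfap2c (2.42 ± 0.834), all transcription factors. Pax6 and Barhl2 also act in ganglion cells, so the list does not hold interneuron genes alone. Pax6 had densities of 4.16, 7.26, 2.63, 1.94 and 6.67, and its body holds the start of Pax6os1.

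Rod genes had a ratio of 1.66 ± 0.470, and 20 of 21 had a mean ratio above 1. The ratio was 1.46, 1.36, 1.67, 2.47 and 1.35 in replicates 1 to 5, so replicate 4 was the highest, and without replicates 3 and 4 the mean was 1.39. Gnat1, the rod transducin subunit, had 5.63, 4.47, 2.44, 4.71 and 4.66. It was in the densest 10% in all 5 libraries, and replicate 3 was the lowest. Cones had 1.26 ± 0.0976 and bipolar cells 1.19 ± 0.0541. A mean ratio above 1 was found in 9 of 12 cone genes and 10 of 15 bipolar genes. Rxrg was the densest cone gene (1.54 ± 0.285). The cone opsin genes Opn1mw and Opn1sw lay at 0.759 ± 0.249 and 0.461 ± 0.345, and Opn1sw held a mean of only 5.8 reads per library. How much signal came from cells other than ganglion cells in the sort was not tested.

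Müller glia, pigment epithelium and pan-neuronal lists were above 1 in all 5 libraries. Müller glia and astrocyte genes had a ratio of 1.61 ± 0.276, and 13 of 17 had a mean ratio above 1. Dkk3 was the densest (2.07 ± 0.943), while Gfap (0.465 ± 0.365) and Car14 (0.365 ± 0.302) lay below the median. Genes of the retinal pigment epithelium had 1.54 ± 0.289, led by Ttr (4.30 ± 1.78), the carrier of thyroid hormone. Pan-neuronal genes had 1.56 ± 0.314, and 16 of 20 had a mean ratio above 1. The densest was Syp, a synaptic vesicle protein, with 3.65, 4.85, 3.36, 3.65 and 6.31. Oligodendrocyte genes stood at 1.05 ± 0.147, above 1 in 2 libraries, and endothelial and pericyte genes at 1.13 ± 0.103, above 1 in all 5. Ubiquitously expressed genes had 1.22 ± 0.345, above 1 in 4 libraries, with 0.675 in replicate 3. Without replicates 3 and 4 their mean was 1.44.

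Immune lists had the lowest means of the cell types. Microglia and macrophage genes had a ratio of 0.770 ± 0.110, below 1 in all 5 libraries (0.850, 0.777, 0.580, 0.830 and 0.815). Of 17 members, 5 had a mean ratio above 1. Aif1 (0.222 ± 0.163), Tmem119 (0.273 ± 0.186) and Cx3cr1 (0.329 ± 0.183) were among the lowest. Lymphocyte genes had 0.830 ± 0.253, with 0.789, 0.925, 0.410, 0.988 and 1.04 in replicates 1 to 5, and in replicates 4 and 5 they lay above oligodendrocyte genes. Of 18 lymphocyte genes, 8 had a mean ratio above 1. In all 5 libraries 2 were above the class median and 1 was below it. The densest was Rag2, with 8.85, 12.6, 9.52, 8.07 and 12.04, and its counted stretch holds the start of B230118H07Rik. Among lists from other organs, liver had 0.900 ± 0.0768, skeletal muscle 0.971 ± 0.0830, epidermis 1.07 ± 0.237 and germ line 0.846 ± 0.230.

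The order of the lists was not the same in every library. Amacrine and horizontal cell genes were the highest of the 12 cell type lists in replicates 1, 2 and 5, ganglion cell transcription factors in replicate 3 and rod genes in replicate 4. Ranges over the libraries overlapped among ganglion cell factors, amacrine genes and rod genes. Within libraries, amacrine genes were above rod genes in all but replicate 4, where the order was turned, with 1.47 against 2.47. The ganglion cell factor list (lowest library 1.45) and the microglia list (highest library 0.850) did not overlap.

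**Figure D4:**
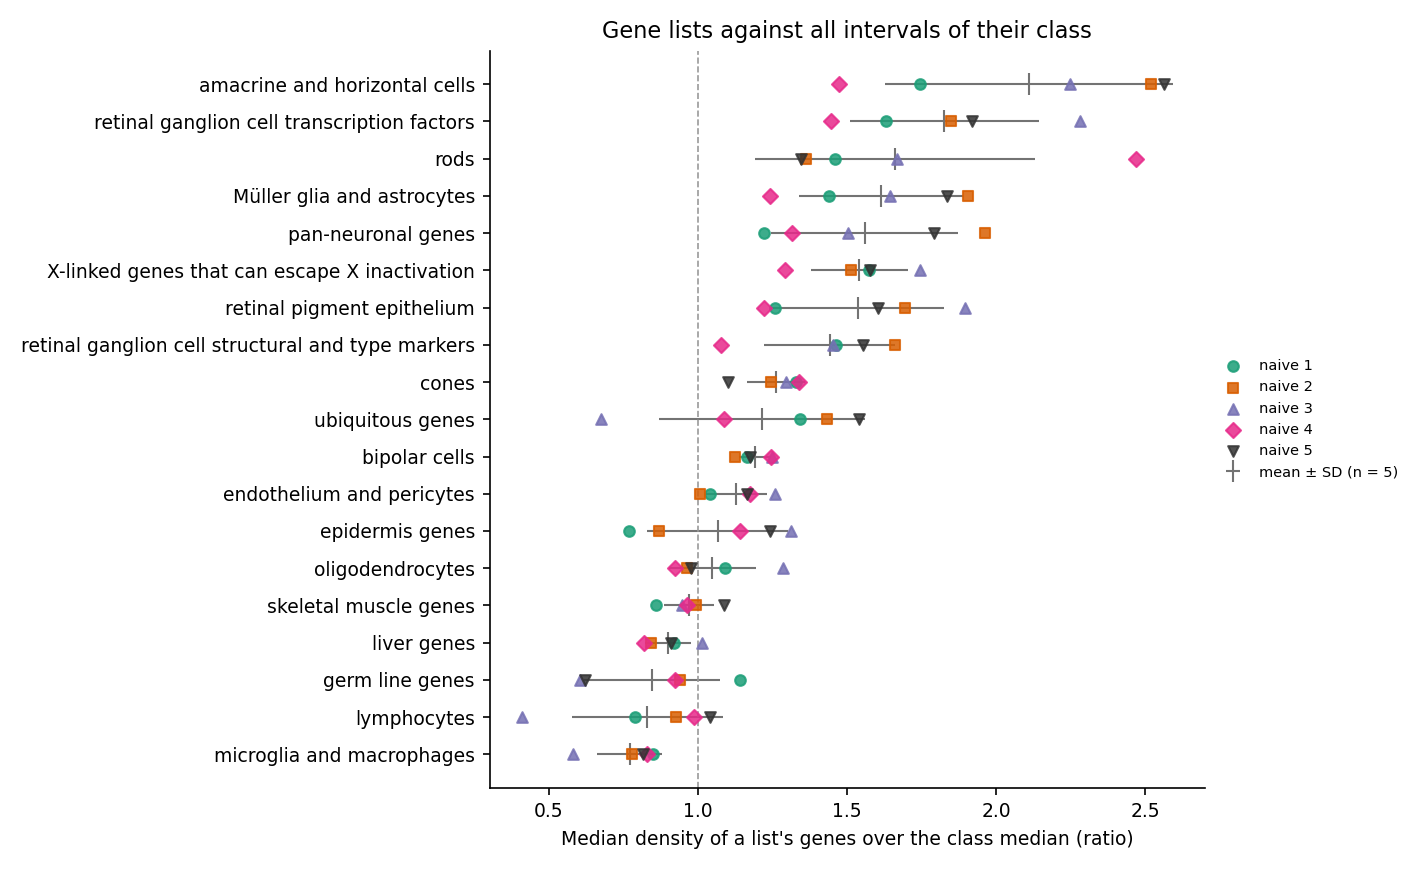
Median density of the genes of each list over the median of all intervals of their class, with 1 point per naive library, the mean ± SD (n = 5) as a grey bar and a dashed line at 1. Ganglion cell, amacrine, rod, Müller glia and pigment epithelium lists lie to the right of the line in all 5 libraries, and the microglia list lies to its left in all 5.

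At the other end, 286 gene bodies held no read in any library. Of these, 33.6% lie on the Y chromosome, 13.6% on chromosome 14, 9.79% on chromosome 4 and 8.04% on chromosome 2, which hold 0.441%, 4.32%, 6.18% and 7.72% of all bodies. Unplaced sequence held 29, and 56.6% carry a predicted-gene symbol beginning with Gm, against 25.4% of all bodies. The longest empty bodies were XR_001784557.1, Fam205a2 and XM_017320487.1, within chromosome 4 42021268-42769179, followed by XM_017318910.1 on an unplaced sequence and Gm21451 on chromosome 14. XR_001784557.1 counted 130609 bp, where the class median density would give 3213 reads over the 5 libraries. A count of 0 allows up to 3 fragments, or 6 reads.

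The sparsest bodies of at least 10000 bp outside the Y chromosome held 2 to 10 reads over the 5 libraries. They were Gm2163, Gm4724, Gm40363, Gm10487, Srp54b, Gm16867, Gm10058, Gm3373, XM_017321258.1 and Gm4541. Gm2163 (chromosome 4, 42172841-42587040) held 2 reads where the median density would give 10140, and Srp54b, a copy of a signal recognition particle gene, held 2 where it would give 790. Gm16867 held 10. Many of these lie in families of near-identical copies, and low accessibility and reads lost to several alignments cannot be told apart.

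The mice were labelled female, and Y chromosome bodies were sparse: 119 of 122 were in the sparsest 10% in all 5 libraries. Uty held 43 reads over the 5 libraries against 3862 at the autosomal median density, Usp9y 40 against 3868, and Kdm5d 1 against 1076. The 3 exceptions, Erdr1 (0.905 ± 0.455), Gm33272 (0.791 ± 0.579) and XM_017318721.1 (0.761 ± 0.779), lie at 90741968-90816465.

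The X chromosome divided the libraries more than any autosome. The median of its 976 bodies over that of the autosomes was 1.18, 0.910, 2.73, 2.01 and 0.987 in replicates 1 to 5 (mean 1.57 ± 0.786). Replicates 3 and 4 lay above the other 3, with no overlap, and without them the mean was 1.03. Replicate 3 was the highest library for 54.7% of X bodies and replicate 4 for 31.0%. In replicate 3 the X median was 1.42 and the X lower quartile 0.879, against an autosomal median of 0.519. X-linked genes that can escape X inactivation had a steadier ratio of 1.54 ± 0.163 to all bodies, and Xist had densities of 1.36, 1.78, 1.18, 1.46 and 2.04.

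Autosomes varied less. Mean ratios to all autosomes ran from 0.765 ± 0.0954 on chromosome 11 to 1.21 ± 0.155 on chromosome 3. Replicate 3 was the lowest on chromosome 11, with 0.595, and the highest on chromosome 3, with 1.46. Dense bodies were unevenly placed: chromosome 7 held 133 of the 810, or 6.50% of its bodies, against 2.85% of all autosomal bodies. Of these 133, 89 lay below 50 Mb (9.97% of 893 bodies there) and 44 above (3.82% of 1152), a boundary chosen after the values were seen.

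**Figure D5:**
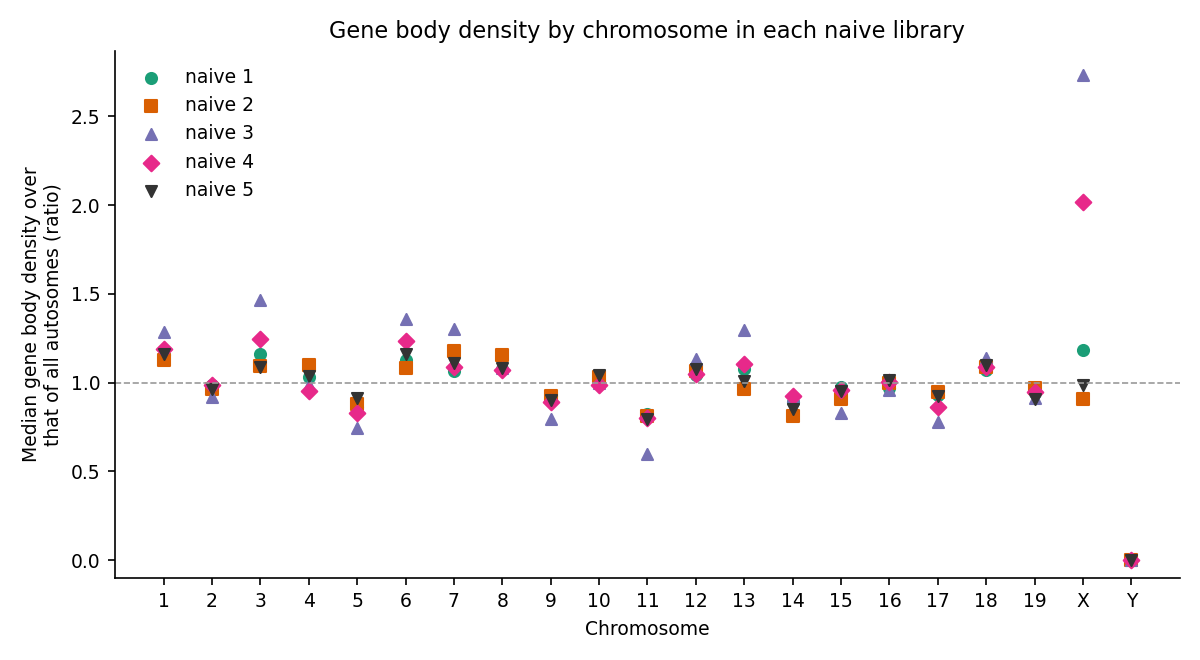
Median gene body density of each chromosome over that of all autosomes, with 1 point per naive library and a dashed line at 1. The libraries lie together on most autosomes and part on X, where replicates 3 and 4 reach 2.73 and 2.01 against 0.910 to 1.18 in the others, and all lie at 0 on Y.

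Neighbouring genes resembled each other most in the same libraries. Across 16418 pairs of adjacent bodies that overlap no other interval, the Spearman correlation of density was 0.254, 0.290, 0.512, 0.397 and 0.230 in replicates 1 to 5. Pairs share a library and their surroundings, and the values are given as a description.

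Spread between libraries was larger than counting error for most genes. Among 12753 bodies with a mean count of at least 100 the median coefficient of variation (CV) was 29.0%, against 9.46% from counting fragments alone, and 12550 bodies exceeded their counting value. The common biological coefficient of variation estimated by edgeR over 28004 intervals was 0.415. Without replicates 3 and 4 the median CV was 18.6%. The CV changed little with density, from 31.7% in the sparsest 10% of these bodies through 27.0% in group 4 of 10 to 33.3% in the densest.

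Across gene bodies, Spearman correlations between libraries ranged from 0.509 to 0.759, with a median of 0.603. Replicates 2 and 5 (0.759), 1 and 2 (0.740) and 1 and 5 (0.697) were alike, as were 3 and 4 (0.686). Pairs across these sets had 0.509 to 0.619. In the densest 10% of well-counted bodies replicate 5 was the highest library for 56.2% and replicate 4 the lowest for 53.9%. In the sparsest 10% replicate 3 was the lowest for 54.9%.

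The most variable bodies were high in replicate 3 or 4. Of the 500 with the highest CV, 246 were highest in replicate 3, 149 in replicate 4 and 83 in replicate 5; over all bodies counted this well these libraries were the highest for 19.2%, 18.1% and 24.3%. Of the 500, 18.8% lie on X against 4.15% of all bodies counted this well. Gm32857 (chromosome 14, 44226217-44315513) was the most variable with a CV of 123%. It held no read in replicate 1 and had 0.11, 1.05, 0.39 and 0.15 in replicates 2 to 5. XM_017316258.1, XM_017316257.1, XM_017316259.1, XR_001781246.1 and 1700024B05Rik lie near it on chromosome 14, several over the same stretch and reads, and also had replicate 3 highest and replicate 1 lowest. On X, Cpxcr1 had 0.42, 0.28, 2.03, 1.98 and 0.16 and Gm382 had 0.62, 0.19, 2.25, 1.15 and 0.30. Gm36406 on chromosome 6 reached 2.51 in replicate 3 against 0.41 to 0.73 elsewhere.

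Eif4enif1, which encodes a transporter of a translation initiation factor, differed in another way, with 0.23, 0.22, 0.17, 0.06 and 1.03 in replicates 1 to 5. Its counted stretch holds the start of Sfi1. The least variable bodies varied no more than counting allows or little more. Cnksr3, a scaffold protein gene, had 1.16, 1.15, 1.22, 1.15 and 1.16, a CV of 2.55% against 5.31% from counting. Ints7 (2.71%), Nrg3 (3.05%), Impad1 (3.10%) and Cep128 (3.19%) followed; of these Nrg3, the gene of a neuregulin growth factor, was counted over 1105987 bp, and its counting CV was 2.03%.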

How the data were processed

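The table deposited by the authors listed 37255 gene intervals, each with its count and its RPKM in every library, and start, end, strand and an exon length (a length in bp, also deposited). Per the submitters' processing notes, cutadapt, HISAT2 and HTSeq were used; versions, genome build, annotation and the treatment of duplicates are not given in the sources used here. Counts deposited by the authors are whole reads with no scaling. RPKM values deposited by the authors divide them by library totals of 22.2 to 49.9 M reads and by a length, the span less 2000 bp without sign; they served only to recover that length. Starts equal those of GRCm38.p6 for 70.5% of shared names, and 86.8% of names are in the RefSeq table; coordinates are as deposited, 1-based. No column of a sample was left unmapped (0 columns).

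Density was the count per kb per M nuclear reads, for the 5 naive libraries only; the 13 mitochondrial intervals and 1984 intervals of under 500 bp counted were left out. No groups were compared, as there is 1 group; Dixon's ratio served only to list values with 1 library far from the others. A gene was called dense or sparse where its rank lay in the top or bottom 10% of its class in all 5 libraries. Counting CVs treat 2 reads as 1 fragment, and limits are for a 95% confidence level and cover counting error only. The depth limits short intervals most: the median start window held a mean of 6.80 reads per library and the median gene body 85.4.

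Named genes were the 15 densest and the 10 sparsest bodies (at least 10000 bp, not on Y, with a read), the 5 longest empty, 10 most and 5 least variable bodies (mean count of at least 100), the 10 densest windows, and members of 19 gene lists, of which 340 of 357 genes were measured. Members and lists were chosen with earlier results of these data known. Python 3.11.15 with NumPy 2.4.6, pandas 2.3.3, SciPy 1.17.1 and Matplotlib 3.10.9 was used, with R 4.3.3, edgeR 4.0.16 (TMM factors, dispersion) and DESeq2 1.42.0 (size factors). The ranking was tested on simulated data. These held counting error only, with no spread between libraries, and their dense bodies were all of at least 10000 bp counted. Alternatives were other library scalings, the gene span as length, length and count minimums, medians, like-length scaling, removal of overlapping intervals, and leaving out libraries. Values of some list members are not reported here.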

Additional observations from a re-analysis of the deposited data

Results flagged for a closer look

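Of 119 values examined over the 5 libraries, 18 had 1 library far from the others by Dixon's ratio (limit 0.71). Chance flags about 1 in 20 groups, but many of the values were of genes chosen for few reads or for extreme spread, so the number is not to be set against that rate. The causes were not tested.

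Among well-counted genes, Eif4enif1 had 1.03 in replicate 5 against 0.0584 to 0.231 elsewhere, and Gm36406 had 2.51 in replicate 3 against 0.409 to 0.731. Cnksr3 had 1.22 in replicate 3 against 1.15 to 1.16, a small gap in the least variable body.

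Rod genes had a ratio to the class median of 2.47 in replicate 4 against 1.35 to 1.67 in the others. Microglia and macrophage genes had 0.580 in replicate 3 against 0.777 to 0.850. Chromosome 11 had a ratio to all autosomes of 0.595 in replicate 3 against 0.792 to 0.821, chromosome 9 had 0.796 in replicate 3 against 0.893 to 0.927, and chromosome 8 had 1.15 in replicate 2 against 1.07 to 1.08.

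The 10 sparsest bodies were also among them, because their few reads fell in 1 library, or nearly so for Gm16867. This follows from their low counts and says nothing of the library. The densities in that library were 0.00096 for Gm2163, 0.00157 for Gm4724, 0.0047 for Gm40363, 0.00631 for Gm10487, 0.00905 for Srp54b, 0.00853 for Gm16867, 0.01215 for Gm10058, 0.01248 for Gm3373, 0.01478 for XM_017321258.1 and 0.01601 for Gm4541. For all but Gm16867 this is 2 reads.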

How the results depend on the processing

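No paired analysis was possible because only 1 group was used and no groups were contrasted. Short intervals hold few reads, overlapping genes share reads, and libraries that fall into unlike sets give wide SDs. Of the recomputed main values, 164 stayed within the spread between libraries or within 1.5 times and 16 did not; none of those 16 came from leaving out 1 library.

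The median density was 0.282 scaled to all reads in intervals and 0.518 over the gene span, by construction. Dense gene bodies numbered 416 among bodies of at least 10000 bp, 435 without overlapping intervals and 1734 without replicates 3 and 4. Dense start windows numbered 80 with a mean count of at least 10 and 121 without overlapping intervals. Sparse bodies numbered 142, 406 and 1048 with that count minimum, without overlapping intervals and without replicates 3 and 4. Filters leave fewer intervals, and fewer libraries ask less of each gene.

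Without replicates 3 and 4 the median Spearman correlation was 0.740 and the median CV 18.6%; the CV was 36.4% scaled to all reads. With a mean count of at least 10 the ratio was 1.41 for ganglion cell transcription factors and 8.52 for histones, against 1.83 and 25.4. The CpG ratio difference between densest and sparsest windows fell from 0.562 for 10% at each end to 0.176 for 20%. Against genes of like length the glutamate receptor ratio was 0.955, below 1; the cause was not tested. A median density under like-length scaling is 1 by construction and was not counted.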
